A study of Mus musculus with 9 samples.

Results

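The early genes described here are Egr1, Egr2, Egr3, Klf2, Klf4, Klf6, Klf10, Ier2, Ier3 and Ier5. They were taken by gene symbol, and all 10 were found among the 34745 genes measured. Messenger RNA from livers of male C57BL/6 mice aged 6 to 8 weeks was sequenced in 9 libraries, with 3 in each of 3 groups. The groups were WZB given before D-gal/LPS, D-gal/LPS alone, and control. D-gal/LPS, commonly D-galactosamine with lipopolysaccharide, injures the liver acutely. No label says what WZB abbreviates, while the design text calls the pretreatment a GLUT1 inhibitor. No dose, time or control vehicle was stated, so the stage of the response at sampling is not known. The labels do not say that the libraries of a group came from separate animals, and p-values therefore measure only the spread between these samples.

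Immediate early genes are transcribed within minutes of a stimulus without new protein synthesis, usually through kinases that act on factors already bound at their promoters. The EGR proteins are zinc finger activators that bind GC-rich DNA, and they are held back by the corepressors NAB1 and NAB2. The KLF proteins carry a related zinc finger domain and bind GC-rich and CACCC sites. KLF2 and KLF4 keep endothelium quiescent and restrain inflammatory genes, KLF6 is known from activated hepatic stellate cells and injured hepatocytes, and KLF10 is induced by TGF-beta and takes part in hepatic glucose metabolism. IER2, IER3 and IER5 are small proteins without a zinc finger. IER3, also called IEX-1, is an NF-kB target that modulates cell death, and IER5 is known to promote the activity of the heat shock factor HSF1.

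Promoter sequences are shown for Egr2 and Klf6, which were called lower with WZB, and for Ier3 and Ier5, which were not called. RefSeq-based sequences (GRCm38.p6) were used for 6 of the 10 members. No window was used for Egr1, Egr3, Klf10 and Ier2. Each run below is the 250 bases before the RefSeq-based annotated start, written 5′ to 3′ on the strand of the gene. For Egr2 and Ier3 that start lies inside the gene position given further below, so the end of the window falls within it. Capitals mark GGGCGG, the core of GC boxes, and the NF-kB site, both searched on both strands. The windows are chr10:67535249-67535498, plus strand; chr13:5861239-5861488, plus strand; chr17:35821463-35821712, plus strand; and chr1:155099637-155099886, minus strand. For Egr2 the most upstream of 5 annotated starts was used.
Egr2: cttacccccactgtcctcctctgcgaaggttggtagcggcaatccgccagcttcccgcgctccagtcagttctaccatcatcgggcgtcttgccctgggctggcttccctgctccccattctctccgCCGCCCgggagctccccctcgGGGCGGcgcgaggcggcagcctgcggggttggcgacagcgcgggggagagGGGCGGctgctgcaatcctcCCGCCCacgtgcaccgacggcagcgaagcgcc
Klf6: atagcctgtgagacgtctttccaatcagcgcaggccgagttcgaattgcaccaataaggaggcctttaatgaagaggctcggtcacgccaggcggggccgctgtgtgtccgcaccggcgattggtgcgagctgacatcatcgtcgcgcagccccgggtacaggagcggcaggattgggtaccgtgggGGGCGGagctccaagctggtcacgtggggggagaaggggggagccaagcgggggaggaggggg
Ier3: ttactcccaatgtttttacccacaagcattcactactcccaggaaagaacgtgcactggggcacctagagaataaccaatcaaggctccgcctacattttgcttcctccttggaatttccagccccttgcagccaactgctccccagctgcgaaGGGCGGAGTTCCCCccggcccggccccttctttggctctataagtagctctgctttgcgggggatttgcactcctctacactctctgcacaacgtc
Ier5: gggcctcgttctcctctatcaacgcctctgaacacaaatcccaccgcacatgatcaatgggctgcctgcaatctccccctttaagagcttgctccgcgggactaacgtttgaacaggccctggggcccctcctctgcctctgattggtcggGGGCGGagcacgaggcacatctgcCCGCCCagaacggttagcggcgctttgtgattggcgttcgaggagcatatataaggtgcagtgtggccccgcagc
GGGCGG stood in all 6 member windows (those of Klf2 and Klf4 included), against 32.7% of the 32851 windows of the same length in the table. Egr2 held 4 copies and Klf6 held 1. The NF-kB site stood in the window of Ier3 alone, where it overlapped the GGGCGG match by 2 bases, and in 3.9% of all windows. TGACG, the core of cyclic AMP response elements, stood in the windows of Klf2 and Klf4 (17.8% of all windows), and CACCC in that of Klf2 (52% of all windows). None of the 6 member windows held the exact string TATAAA (12.4% of all) or the CArG box, the site of serum response factor (1.47% of all). Variants of these strings and bases outside the windows were not searched. For Egr1, Egr3, Klf10 and Ier2, which had no window here, nothing can be said on these sites.

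Libraries held 15072509 to 18106895 counted reads. Levels are CPM, read counts scaled to a common library size with TMM factors, unless FPKM is named. Hepatocyte markers were abundant in all groups, as the label liver asks, with a summed level of 128000 to 138000 CPM over 6 genes in WZB + D-gal/LPS livers, 97400 to 99500 CPM in D-gal/LPS livers and 79500 to 81200 CPM in control livers. Alb made up most of this sum, with means of 93600, 71900 and 51500 CPM in the same order. With D-gal/LPS Alb and Cps1 rose, Hnf4a fell, and Ttr, Apoa1 and Cyp2e1 were not called. With WZB 5 of the 6 rose and Apoa1 was not called. Markers of other cells moved with the treatments, and their part in the results below was not tested. Summed over 7 neutrophil markers the level was 237 to 259 CPM in WZB + D-gal/LPS livers, 323 to 353 CPM in D-gal/LPS livers and 5.35 to 5.79 CPM in control livers. For 6 monocyte markers it was 81.3 to 104 CPM in WZB + D-gal/LPS livers, 163 to 172 CPM in D-gal/LPS livers and 5.6 to 8.02 CPM in control livers. All of these immune markers rose with D-gal/LPS, and 3 of the 7 and 4 of the 6 fell with WZB. The sum of 7 endothelial markers was 235 to 286 CPM in WZB + D-gal/LPS livers, 459 to 488 CPM in D-gal/LPS livers and 92.7 to 106 CPM in control livers. That of 6 stellate cell markers was 444 to 520 CPM in WZB + D-gal/LPS livers, 811 to 860 CPM in D-gal/LPS livers and 90.2 to 90.7 CPM in control livers. That of 7 Kupffer cell and macrophage markers was 199 to 265 CPM in WZB + D-gal/LPS livers, 372 to 415 CPM in D-gal/LPS livers and 95.4 to 100 CPM in control livers. These 3 sums were highest in D-gal/LPS livers, but single markers did not all follow them. Of the endothelial markers 6 rose and Kdr fell with D-gal/LPS, and with WZB 5 fell, Kdr rose and Stab2 was not called. All 6 stellate cell markers rose with D-gal/LPS, and with WZB Reln and Dcn fell, Lrat and Des rose and 2 were not called. All 7 Kupffer cell and macrophage markers rose with D-gal/LPS and 6 fell with WZB. The sum of 5 red blood cell markers was 422 to 712 CPM in WZB + D-gal/LPS livers, 3580 to 4470 CPM in D-gal/LPS livers and 110 to 140 CPM in control livers. Markers of T, NK and B cells summed to 6.48 to 10.8 CPM in WZB + D-gal/LPS livers, 8.5 to 10.4 CPM in D-gal/LPS livers and 2.71 to 3.49 CPM in control livers, and those of cholangiocytes to 175 to 252 CPM in WZB + D-gal/LPS livers, 162 to 230 CPM in D-gal/LPS livers and 78.8 to 91.8 CPM in control livers. No marker was at 0 in all libraries of a group. In bulk tissue, fewer cells of a type and less RNA per cell cannot be told apart.

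D-gal/LPS raised 9 of the 10 early genes relative to control livers and lowered 1, Klf10. Among all 13583 genes tested 58.4% were called, 29.1% higher and 29.3% lower, so a change as such was common in these livers. The members' median log2 fold change was 3.44, against -0.03 over all genes tested. For all 10 members the libraries of D-gal/LPS and control livers did not overlap, which was true of 65.5% of all genes, 32.4% with higher and 33.1% with lower D-gal/LPS libraries. Tests used the quasi-likelihood method of edgeR on 3 libraries a group, p-values were adjusted by Benjamini and Hochberg across every gene tested, and ± after a log2 fold change is its approximate standard error.

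The 3 EGR genes rose, and their control levels were low. Egr1, the best known of the family and a sensor of ERK signalling, stood at 206, 182 and 176 CPM in WZB + D-gal/LPS livers, 254, 226 and 252 CPM in D-gal/LPS livers and 14.3, 3.62 and 9.85 CPM in control livers. The control libraries spread widely, while the injured libraries lay close together and far above them. The log2 fold change of D-gal/LPS against control was 4.72 ± 0.45 (edgeR adjusted p = 0.000123). Egr1 lies at chromosome 18:34859823-34864984 (GRCm38, as are all gene positions here). Egr2, a factor of myeloid and lymphoid cells and of Schwann cells, had 157, 147 and 233 counts in WZB + D-gal/LPS livers, 439, 359 and 502 in D-gal/LPS livers and 0, 0 and 3 in control livers. It was nearly absent from control livers and clearly present in each injured library. The ratio of summed, scaled counts of D-gal/LPS to control was 456, with an exact 95% interval of 156 to 2210 that covers counting error only (edgeR adjusted p = 7.47e-10). Egr3, a close relative of Egr2, had 6, 3 and 18 counts in WZB + D-gal/LPS livers, 60, 36 and 34 in D-gal/LPS livers and 0, 0 and 1 in control livers. Its ratio of D-gal/LPS to control was 137 (24.1 to 5450, edgeR adjusted p = 1.41e-05). It was the least abundant EGR gene in both injured groups, also per length. Egr2 lies at chromosome 10:67535475-67542188 and Egr3 at 14:70077445-70080157. The fitted log2 fold changes of 8.65 for Egr2 and 6.61 for Egr3 were 11.69 and 8.37 without control replicate 3, the sole control library with a read of either gene.

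**Figure D1:**
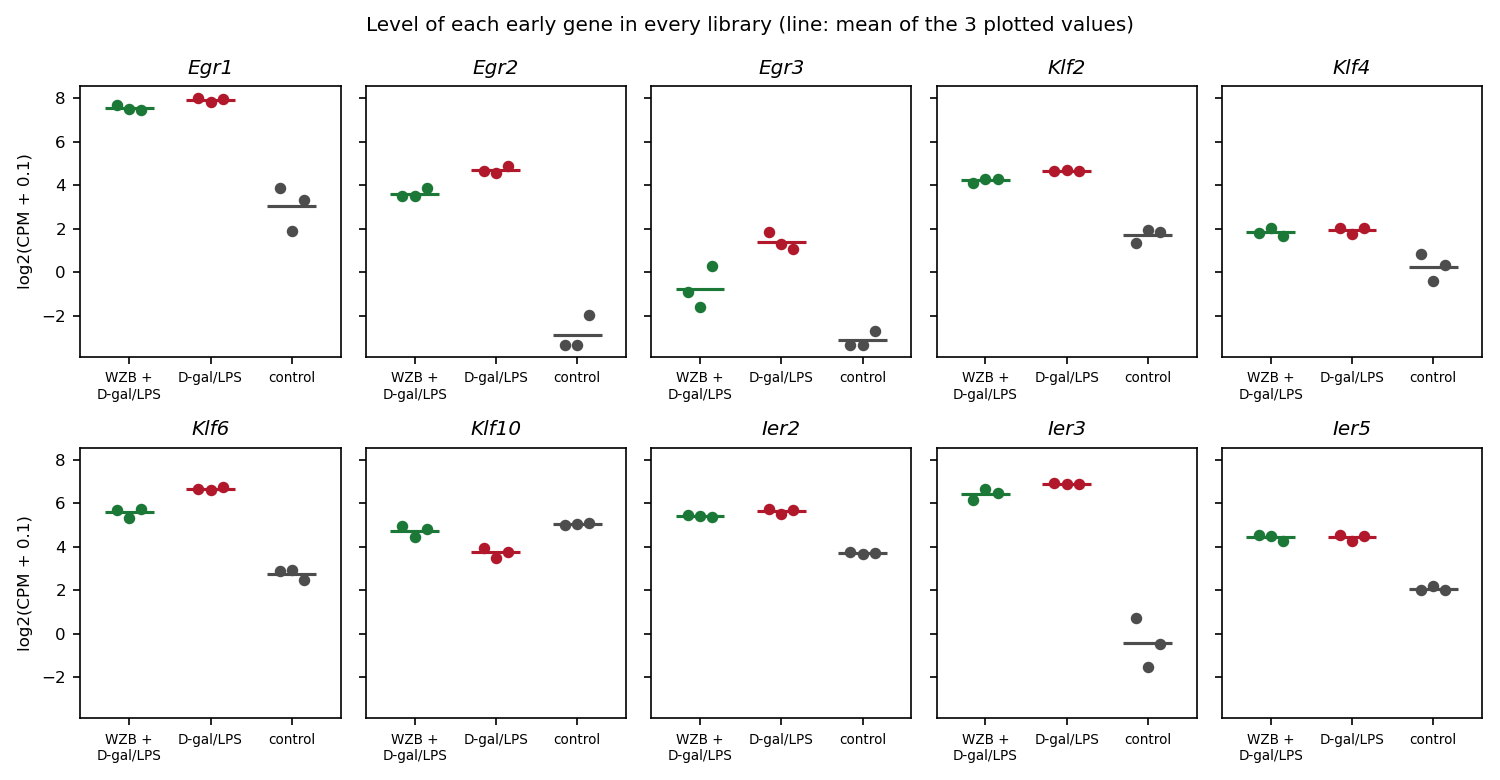
Level of each of the 10 early genes on the scale log2(CPM + 0.1) (vertical axis) in the 3 libraries of the WZB + D-gal/LPS, D-gal/LPS and control groups (horizontal axis); points are libraries and lines the mean of the 3 plotted values. In 9 panels the control libraries lie below all others, and in the panel of Klf10 they lie above, with 31.5 to 34.0 CPM.

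Of the KLF genes, Klf2, Klf4 and Klf6 rose and Klf10 fell. Klf6 had 51.0, 39.9 and 52.3 CPM in WZB + D-gal/LPS livers, 100, 95.6 and 108 CPM in D-gal/LPS livers and 7.19, 7.48 and 5.37 CPM in control livers. The 3 groups did not overlap, and the WZB + D-gal/LPS libraries lay between the other groups. Its log2 fold change of D-gal/LPS against control was 3.92 ± 0.15 (edgeR adjusted p = 9.07e-11). Klf2, the shear stress factor of endothelium, had 17.2, 19.4 and 19.2 CPM in WZB + D-gal/LPS livers, 25.4, 25.7 and 25.0 CPM in D-gal/LPS livers and 2.4, 3.74 and 3.54 CPM in control livers. The D-gal/LPS libraries were nearly level with each other, with an SD of 0.0194 on the log2 scale. Its log2 fold change of D-gal/LPS against control was 2.97 ± 0.16 (edgeR adjusted p = 2.84e-09), in livers where 6 of 7 endothelial markers rose and Kdr fell (-0.71, edgeR adjusted p = 0.00402). Klf4, an epithelial and macrophage factor also induced in endothelium, was the faintest KLF member, also per length, at 3.33, 3.99 and 3.07 CPM in WZB + D-gal/LPS livers, 3.99, 3.23 and 3.95 CPM in D-gal/LPS livers and 1.66, 0.664 and 1.15 CPM in control livers. Both injured groups lay above the control libraries and overlapped each other. Its log2 fold change of D-gal/LPS against control was 1.68 ± 0.31 (edgeR adjusted p = 0.000376). Klf10 had 30.9, 21.6 and 27.9 CPM in WZB + D-gal/LPS livers, 15.1, 11.2 and 13.6 CPM in D-gal/LPS livers and 31.5, 33.3 and 34.0 CPM in control livers. It was the sole member that was highest in control livers, and it fell by 1.31 ± 0.15 log2 units with D-gal/LPS (edgeR adjusted p = 4.57e-06). Klf2 lies at chromosome 8:72319033-72321656, Klf4 at 4:55527143-55532466, Klf6 at 13:5861489-5870393 and Klf10 at 15:38294413-38300707.

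The 3 IER genes rose by very different factors. Ier3 had 70.3, 101 and 87.5 CPM in WZB + D-gal/LPS livers, 122, 117 and 119 CPM in D-gal/LPS livers and 1.54, 0.241 and 0.625 CPM in control livers. It was barely present in control libraries, with 25, 4 and 12 counts, and its log2 fold change of D-gal/LPS against control was 7.22 ± 0.40 (edgeR adjusted p = 2.26e-06), or 8.04 without control replicate 1. Ier2, a nuclear protein of the fast serum response, had 44.2, 43.0 and 40.7 CPM in WZB + D-gal/LPS livers, 52.3, 45.4 and 50.6 CPM in D-gal/LPS livers and 13.2, 12.4 and 13.0 CPM in control livers. Unlike Ier3 it was already well expressed in every control library. Its log2 fold change of D-gal/LPS against control was 1.94 ± 0.10 (edgeR adjusted p = 2.07e-09). Ier5 had 22.9, 22.5 and 18.8 CPM in WZB + D-gal/LPS livers, 22.8, 19.0 and 22.5 CPM in D-gal/LPS livers and 3.94, 4.4 and 3.96 CPM in control livers. The injured groups lay on top of each other, and the log2 fold change of D-gal/LPS against control was 2.38 ± 0.14 (edgeR adjusted p = 7.87e-09). Ordered by log2 fold change among the 13583 genes tested, Egr2 was number 24, Ier3 number 62 and Egr3 number 93 from the top, whereas Ier2 was number 1565 and Klf4 number 1792. Ier2 lies at chromosome 8:84661331-84662852, Ier3 at 17:35821684-35822923 and Ier5 at 1:155096361-155099636. No other annotated gene overlapped any of the 10 members (GENCODE M21).

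WZB before D-gal/LPS lowered Egr2, Egr3, Klf2 and Klf6 relative to D-gal/LPS alone, raised Klf10, and left 5 members without a call. Among all genes tested 28.5% were called, 14.7% lower and 13.8% higher. The libraries of the WZB + D-gal/LPS and D-gal/LPS groups did not overlap for 8 of the 10 members, which was true of 45.3% of all genes. The median log2 fold change of the members was -0.42, against -0.02 over all genes tested. The split of calls with WZB depended on the scaling of libraries. TMM gave 1873 genes higher and 2001 lower, upper quartile factors 2358 higher and 1643 lower, and total counts 850 higher and 3290 lower. With total-count scaling the median of all genes stood at -0.22.

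Klf6 fell by 1.08 ± 0.13 log2 units with WZB (edgeR adjusted p = 6.62e-05), in livers where, of 6 stellate cell markers, Reln and Dcn fell and Lrat and Des rose. Dcn made up most of the sum of these markers, with 346 CPM in WZB + D-gal/LPS livers and 610 CPM in D-gal/LPS livers. Lrat had 20.4 CPM in WZB + D-gal/LPS livers and 12.6 CPM in D-gal/LPS livers. Egr2 fell by 1.10 ± 0.20 (edgeR adjusted p = 0.00151), so that the injured livers given WZB held 11.1 to 14.3 CPM and those without it 23.7 to 29.6 CPM. Klf6 and Egr2 were called in each of the 21 fits run. Egr3 fell by 2.10 ± 0.51 (edgeR adjusted p = 0.00782), the largest fall among the members, but on counts of 3 to 18 against 34 to 60. That call was lost without D-gal/LPS replicate 1 (adjusted p = 0.0507), and the fold change was -2.97 without WZB + D-gal/LPS replicate 3. Klf2 fell by 0.45 ± 0.14 (edgeR adjusted p = 0.0285) while 5 of 7 endothelial markers fell, Kdr rose (0.67, edgeR adjusted p = 0.0148) and Stab2 was not called (-0.23, edgeR adjusted p = 0.177). With upper quartile factors Klf2 was no longer called (edgeR adjusted p = 0.0598). It was also lost without D-gal/LPS replicate 1 or 3, and without WZB + D-gal/LPS replicate 1, 2 or 3 (adjusted p = 0.0538 to 0.0926).

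Klf10 rose by 1.01 ± 0.15 log2 units with WZB (edgeR adjusted p = 0.000243), the sole member to rise and the sole member that D-gal/LPS had lowered. Its fold change lay between 0.69 and 1.14 over the 21 fits and passed the test in each. Its 3 WZB + D-gal/LPS libraries lay between those of D-gal/LPS livers and those of control livers.

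Egr1 and Ier3 were lower in every WZB + D-gal/LPS library than in any D-gal/LPS library, yet neither was called. Egr1 had a log2 fold change of -0.38 (95% interval -1.27 to 0.52, edgeR adjusted p = 0.512) and Ier3 of -0.47 (-1.11 to 0.17, edgeR adjusted p = 0.251). The 3 groups shared 1 estimate of the spread in this fit, and the SD of log2 CPM of Egr1 was 0.117 in WZB + D-gal/LPS livers, 0.0915 in D-gal/LPS livers and 1.0 in control livers. For Ier3 these SDs were 0.261, 0.0313 and 1.09. Fitted on the 6 injured libraries alone, both were called lower, Egr1 at -0.37 (edgeR adjusted p = 0.00779) and Ier3 at -0.47 (edgeR adjusted p = 0.0106). With all groups, Egr1 was also called without control replicate 2 (adjusted p = 0.0279), and Ier3 without control replicate 1 (adjusted p = 0.032), with voom (0.00324) and with limma on log2(FPKM + 1) (0.0356). The calls for Egr1 and Ier3 therefore differed between fits, while the sign was negative in all 21.

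Ier2 had a log2 fold change of -0.21 with WZB (95% interval -0.42 to -0.01, edgeR adjusted p = 0.112), and it was called lower in 8 of the 21 fits. These were DESeq2, its size factors in edgeR, the filter of 5 CPM, voom, limma on both FPKM scales, total-count scaling and the fit without D-gal/LPS replicate 2. Klf4 (-0.11, 95% interval -0.72 to 0.50, edgeR adjusted p = 0.816) and Ier5 (0.00, -0.28 to 0.27, edgeR adjusted p = 0.985) were called in none of their fits. The libraries of the WZB + D-gal/LPS and D-gal/LPS groups overlapped for both. The sign of Ier5 turned with the scaling, being -0.20 with total-count scaling and 0.07 with upper quartile factors.

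**Figure D2:**
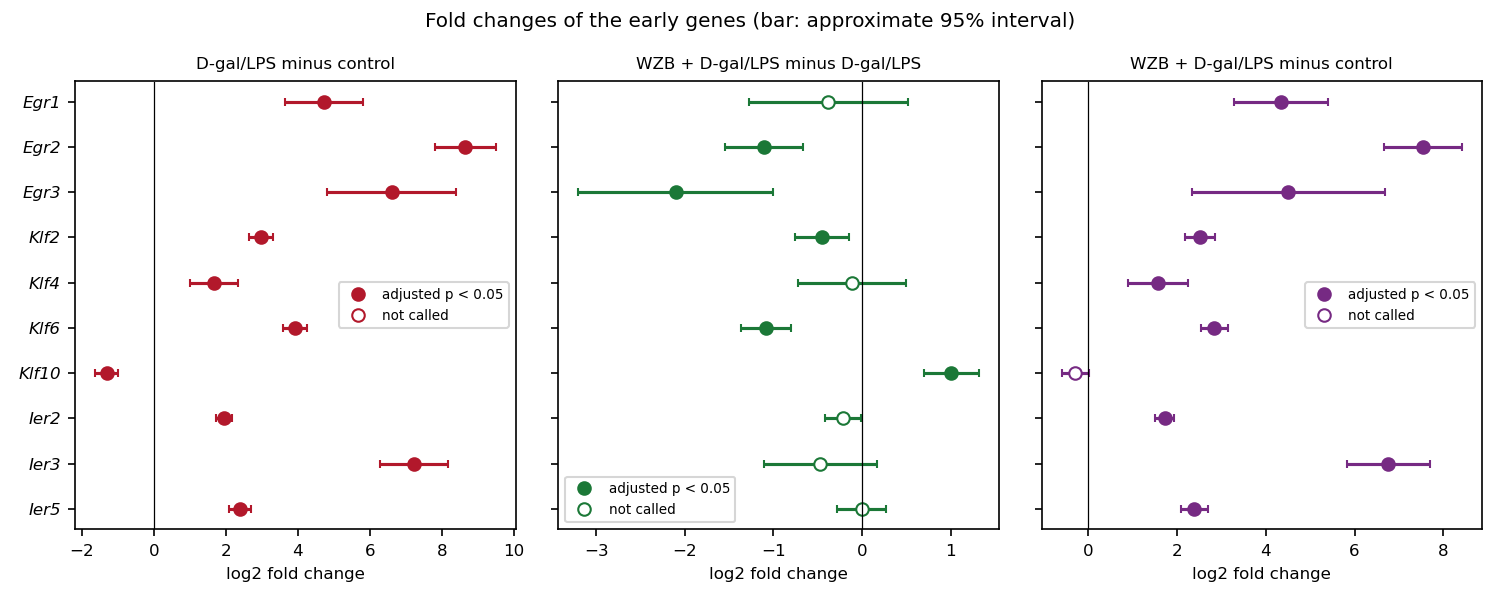
Log2 fold change (horizontal axis) of each early gene (rows) in the 3 comparisons (panels), with bars for the approximate 95% interval; filled points passed an adjusted p of 0.05 and open points did not. Injury against control runs from -1.31 for Klf10 to 8.65 for Egr2, and with WZB the interval of Klf10 lies on the other side of 0 from those of Egr2, Egr3, Klf2 and Klf6.

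Against control livers, the WZB + D-gal/LPS livers still showed 9 of the 10 members higher and none lower by edgeR. Klf10 was the exception, at -0.30 (95% interval -0.60 to 0.01, unadjusted p = 0.0563, edgeR adjusted p = 0.086), and DESeq2 and voom did not call it lower either. Klf10 was called lower with total-count scaling (-0.55, adjusted p = 0.00829), by limma on log2(FPKM + 0.1) and log2(FPKM + 1) (adjusted p = 0.0123 and 0.00965), and in the fit of only these 2 groups (adjusted p = 0.0373). It was also called without D-gal/LPS replicate 2 (adjusted p = 0.028) and without WZB + D-gal/LPS replicate 1 (adjusted p = 0.0362). Of all genes tested 60.6% were called in this comparison, 32.6% higher and 28.0% lower. The groups did not overlap for any of the 10 members, nor for 65.9% of all genes, 35.0% with higher and 30.9% with lower WZB + D-gal/LPS libraries. With total-count scaling the counts were 3248 higher and 5061 lower, in place of 4430 and 3806. Log2 fold changes against control were 7.55 ± 0.41 for Egr2, 6.75 ± 0.40 for Ier3, 4.35 ± 0.44 for Egr1, 2.84 ± 0.14 for Klf6 and 2.52 ± 0.16 for Klf2. The smallest rises were those of Ier5 (2.38 ± 0.14), Ier2 (1.73 ± 0.10) and Klf4 (1.57 ± 0.31). For Egr3, on 27 counts in all against 1, the ratio to control was 32.2 with an exact interval of 5.3 to 1320. The fitted changes were 10.58 for Egr2 and 6.27 for Egr3 without control replicate 3, 3.64 for Egr3 without WZB + D-gal/LPS replicate 3 (4.51 with all libraries), and 7.57 for Ier3 without control replicate 1. This comparison shares its control libraries with that of D-gal/LPS, and its WZB libraries with the comparison of both injured groups, so the 3 sets of values are not independent.

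Levels of different genes can be set in order only per length, for which the authors' FPKM were used. In D-gal/LPS livers Ier3 was the most abundant member at 109 ± 4.88 FPKM (SD, n = 3), number 337 of all 34745 genes. Ier2 (33.6 ± 3.25 FPKM) and Egr1 (33.5 ± 2.90 FPKM) followed with overlapping ranges, then Klf6 (24.8 ± 2.07 FPKM) and Klf2 (14.2 ± 0.243 FPKM), each apart from its neighbours. Ier5 (6.77 FPKM) came next, and Egr2 (5.0 FPKM) and Klf10 (4.52 FPKM) overlapped each other. Egr3 (1.91 FPKM) and Klf4 (0.873 FPKM) were last. In WZB + D-gal/LPS livers Ier3 also led, at 68.4 ± 10.3 FPKM, but Klf6 (10.2 FPKM), Klf2 (9.05 FPKM) and Klf10 (7.95 FPKM) formed a run of neighbours with overlapping ranges. Ier2 and Egr1, at 25.2 and 22.5 FPKM, overlapped there as well. In control livers Klf10 led at 11.6 ± 0.537 FPKM, above Ier2 at 9.08 ± 0.134 FPKM. Klf2, Klf6, Ier5, Egr1, Ier3 and Klf4 followed from 1.88 to 0.28 FPKM, and each overlapped the next in that order. Klf10 thus held the eighth place in D-gal/LPS livers, against the first in control livers, and Ier3 the first place, against the seventh.

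**Figure D3:**
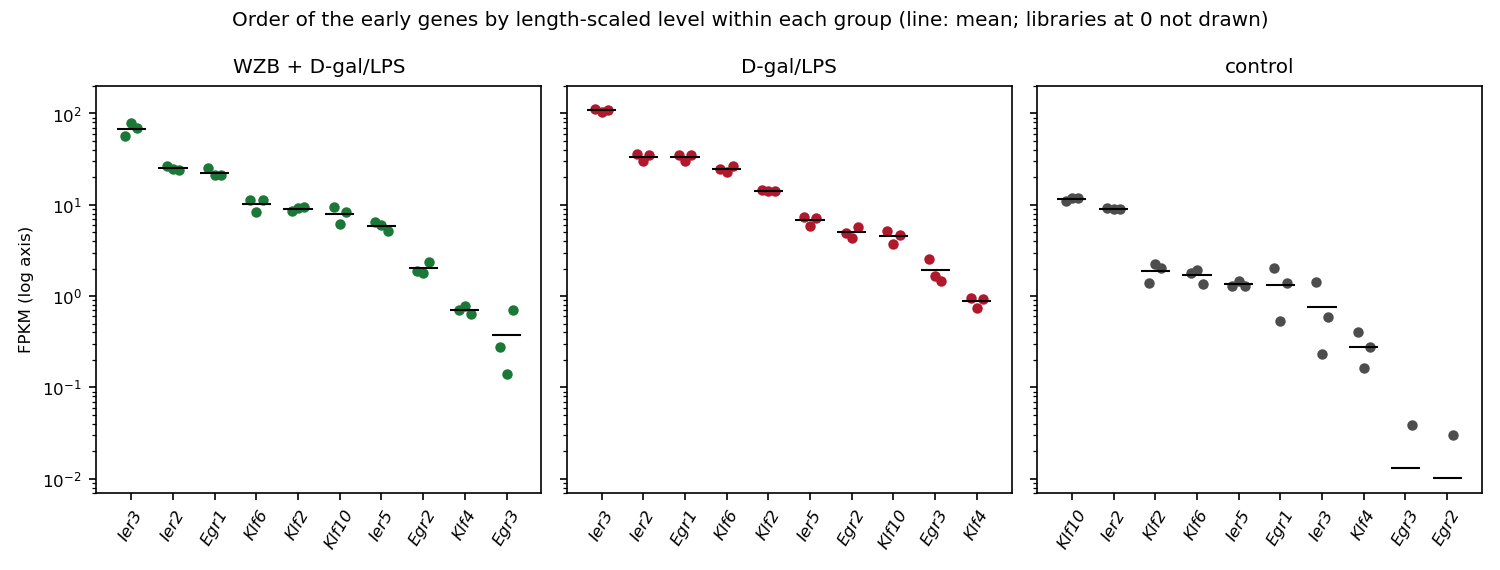
FPKM on a log axis (vertical) of the 10 early genes, ordered by their mean within the WZB + D-gal/LPS, D-gal/LPS and control groups (panels); points are libraries, lines means, and libraries at 0 are not drawn. Ier3 leads both injured groups with means of 68.4 and 109 FPKM, while Klf10 leads the control livers with 11.6 FPKM.

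Ratios between members within a library do not depend on how libraries are scaled. The 4 pairs given were chosen after their values were seen, so their p-values are no separate support for the calls above. Klf10 over Klf6 was 0.839, 0.75 and 0.738 in WZB + D-gal/LPS livers, 0.209, 0.162 and 0.174 in D-gal/LPS livers and 6.07, 6.17 and 8.77 in control livers, as ratios of FPKM. The groups were far apart, and the ratio was higher by 2.10 log2 units with WZB than without. Klf6 over Ier5 was 1.73, 1.38 and 2.16 in WZB + D-gal/LPS livers, 3.41, 3.9 and 3.74 in D-gal/LPS livers and 1.42, 1.32 and 1.05 in control livers. With WZB the ratio of Klf6 to Ier5 was lower by a log2 difference of -1.09, and its range overlapped that of control livers. Egr2 over Egr1 was 0.0749, 0.0843 and 0.112 in WZB + D-gal/LPS livers and 0.138, 0.145 and 0.163 in D-gal/LPS livers, a log2 difference of -0.74. For these 3 ratios the injured groups did not overlap (exact permutation test, two-sided p = 0.1 each, adjusted p = 0.133 over the 4 ratios), and 0.1 is the smallest p that 3 against 3 libraries allow. Ier3 over Ier2 was 2.14, 3.16 and 2.9 in WZB + D-gal/LPS livers and 3.14, 3.47 and 3.17 in D-gal/LPS livers, with overlap (log2 difference -0.27, exact permutation p = 0.2, adjusted p = 0.2).

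**Figure D4:**
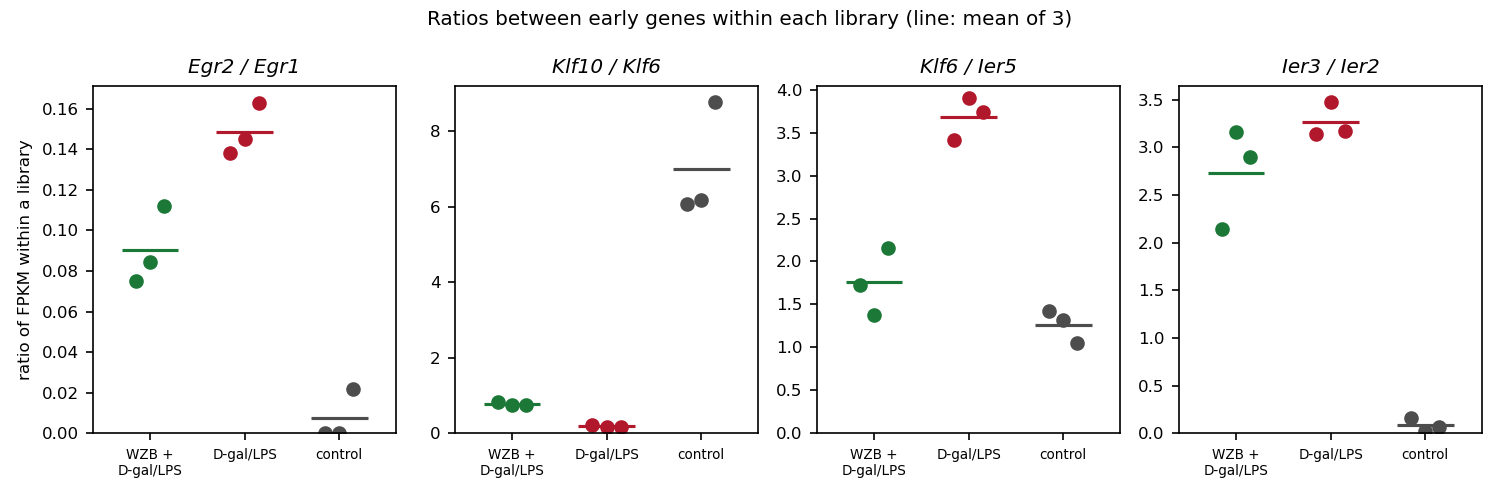
Ratio of the FPKM of 2 early genes within each library (vertical axes, from 0) for 4 pairs (panels) in the WZB + D-gal/LPS, D-gal/LPS and control groups; points are libraries and lines means. Klf6 / Ier5 is 1.38 to 2.16 with WZB, 3.41 to 3.9 with D-gal/LPS alone and 1.05 to 1.42 in controls.

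Members also differed in how evenly they were expressed between libraries of a group. By edgeR's dispersion, Egr1 (percentile 93.4 among all genes tested) and Egr3 (92.8) were among the most uneven genes, followed by Ier3 (77.1) and Klf4 (67.4). Ier2 (11.6), Klf2 (26.2) and Ier5 (26.8) were among the even ones. This dispersion is a single value for all groups. For Egr1 and Ier3 the spread was widest in control livers, with SDs of log2 CPM of 1.0 and 1.09. In WZB + D-gal/LPS livers these SDs were 0.117 and 0.261, and in D-gal/LPS livers 0.0915 and 0.0313. Egr2, Klf2, Klf4 and Klf6 also spread most in control livers, with SDs of 0.679, 0.336, 0.593 and 0.257. Egr3, Klf10, Ier2 and Ier5 did not. In the D-gal/LPS group, replicate 2 was lowest for 8 of the 10 members, with a median deviation of -0.11 log2 units from the group mean, against 0 over all genes tested. In control livers replicate 2 had the same median deviation of -0.11, against 0.01 over all genes. It was lowest for 4 members there, and replicate 1 for 5. In WZB + D-gal/LPS livers no library was lowest for more than 4 members. The share of all genes lowest in a given library was not counted.

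Other immediate early genes were taken from a list of 20, chosen with earlier results of these data known. All 20 were tested and rose with D-gal/LPS, with a median log2 fold change of 3.90, while 29.1% of all genes rose. Nr4a1, an orphan nuclear receptor, rose to 78.5 ± 4.97 CPM in D-gal/LPS livers, against 1.47 ± 0.22 CPM in control livers (SD, n = 3). Cyr61, a matricellular target of SRF and YAP, rose to 205 ± 12.3 CPM, against 6.63 ± 0.788 CPM, and Btg2, an antiproliferative gene, to 69.5 ± 1.29 CPM, against 11.5 ± 0.854 CPM. With WZB 9 of the 20 fell relative to D-gal/LPS alone and none rose, with a median of -0.74. Of all genes 14.7% fell and 13.8% rose with WZB. Nr4a1 fell by 1.57 ± 0.11, Cyr61 by 1.55 ± 0.11 and Btg2 by 0.79 ± 0.10 log2 units (edgeR adjusted p = 2.1e-06, 2.1e-06 and 7.21e-05). Among those not called, Jun (0.10), Atf3 (0.17), Gadd45b (0.07) and Dusp6 (-0.03) had fold changes near 0, as Ier5 did. These 4 were picked after their values were seen.

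Of 6 tested genes for SRF and its cofactors, Srf, Elk1 and Elk3 rose with D-gal/LPS and Mkl2 fell. Srf, which encodes serum response factor, had 14.5 ± 1.6 CPM in WZB + D-gal/LPS livers, 27.8 ± 1.48 CPM in D-gal/LPS livers and 10.7 ± 0.561 CPM in control livers. It fell by 0.93 ± 0.12 log2 units with WZB (edgeR adjusted p = 9.74e-05), while Elk3 rose by 0.99 ± 0.24 (edgeR adjusted p = 0.00693). With D-gal/LPS the corepressor gene Nab1 rose by 0.52 ± 0.08 and Nab2 fell by 0.63 ± 0.16 (edgeR adjusted p = 0.000112 and 0.00471). Neither was called with WZB (edgeR adjusted p = 0.963 and 0.78), and Wt1, a zinc finger relative of EGR1, was called in no comparison. Egr4 was too low to be tested. Of 18 tested kinases of the ERK, JNK and p38 pathways, 7 rose and 3 fell with D-gal/LPS, a share near the 58.4% called among all genes. Map3k8, a kinase upstream of ERK in LPS signalling, rose by 3.03 ± 0.20, and Mapkapk2, a p38 target kinase, by 1.39 ± 0.10. With WZB 3 rose and 1 fell, Mapkapk2 by 0.70 ± 0.09 (edgeR adjusted p = 0.000152), a smaller share than the 28.5% called among all genes.

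Of 14 other KLF and Sp genes tested, Klf7 and Klf12 rose with D-gal/LPS and 6 fell, with a median of -0.30. That share of calls was near the 58.4% of all genes, and the 4 calls with WZB were near the 28.5% of all genes. Klf7, a broadly expressed KLF gene, stood at 18.1 ± 1.49 CPM in WZB + D-gal/LPS livers, 38.8 ± 2.62 CPM in D-gal/LPS livers and 6.82 ± 0.321 CPM in control livers. Klf15, a glucocorticoid-induced factor of amino acid and glucose metabolism, had 38.8 ± 6.01 CPM in WZB + D-gal/LPS livers, 27.8 ± 5.0 CPM in D-gal/LPS livers and 95.6 ± 9.46 CPM in control livers. Like Klf10 it fell with D-gal/LPS (-1.78 ± 0.15, edgeR adjusted p = 3.37e-07) and rose with WZB (0.48 ± 0.14, edgeR adjusted p = 0.0249), but it stayed lower than in control livers (-1.30 ± 0.14, edgeR adjusted p = 5.75e-06). With WZB Klf3, Klf7 and Klf9 fell and Klf15 alone of the 14 rose. Of 3 genes listed beside the IER genes, not all of the same family, Sertad1 rose with D-gal/LPS (1.67 ± 0.14, edgeR adjusted p = 2.29e-07). None of the 3 was called with WZB.

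Genes known as targets of EGR1 rose in 9 of 10 cases with D-gal/LPS, with a median of 2.55, and 7 of the 10 fell with WZB, with a median of -0.81. Among all genes tested 29.1% were called higher with D-gal/LPS and 14.7% lower with WZB. Like the lists above, this list and the next were chosen with earlier results of these data known. Thbs1, which encodes thrombospondin 1, had 82.3 ± 18.2 CPM in WZB + D-gal/LPS livers, 352 ± 21.0 CPM in D-gal/LPS livers and 0.688 ± 0.127 CPM in control livers. Plaur, which encodes the urokinase receptor, had 14.6 ± 1.69 CPM in WZB + D-gal/LPS livers, 37.3 ± 1.51 CPM in D-gal/LPS livers and 0.49 ± 0.155 CPM in control livers. Thbs1 fell by 2.10 ± 0.14 log2 units with WZB (edgeR adjusted p = 3.34e-06), and Plaur fell as well (edgeR adjusted p = 2.03e-05). Of 8 known targets of KLF2 and KLF4 in endothelium, 6 rose with D-gal/LPS (median 1.77) and 5 fell with WZB (median -0.87). The shares over all genes for these directions are again 29.1% and 14.7%. Thbd, the anticoagulant thrombomodulin, had 11.9 ± 3.19 CPM in WZB + D-gal/LPS livers, 34.1 ± 3.37 CPM in D-gal/LPS livers and 0.582 ± 0.315 CPM in control livers, and it fell by 1.52 ± 0.22 with WZB (edgeR adjusted p = 0.000403). Adm, a vasodilator peptide, fell by 1.43 ± 0.15 and the junction gene Cdh5 by 1.30 ± 0.11 (edgeR adjusted p = 2.62e-05 and 7.7e-06). Cdh5 is itself on the list of 7 endothelial markers, of which 5 fell and Kdr rose with WZB. Nos3 (-0.02) and Tek (0.20) were not called. These genes have other regulators too, and control of any of them by EGR1, KLF2 or KLF4 in these livers was not measured.

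**Figure D5:**
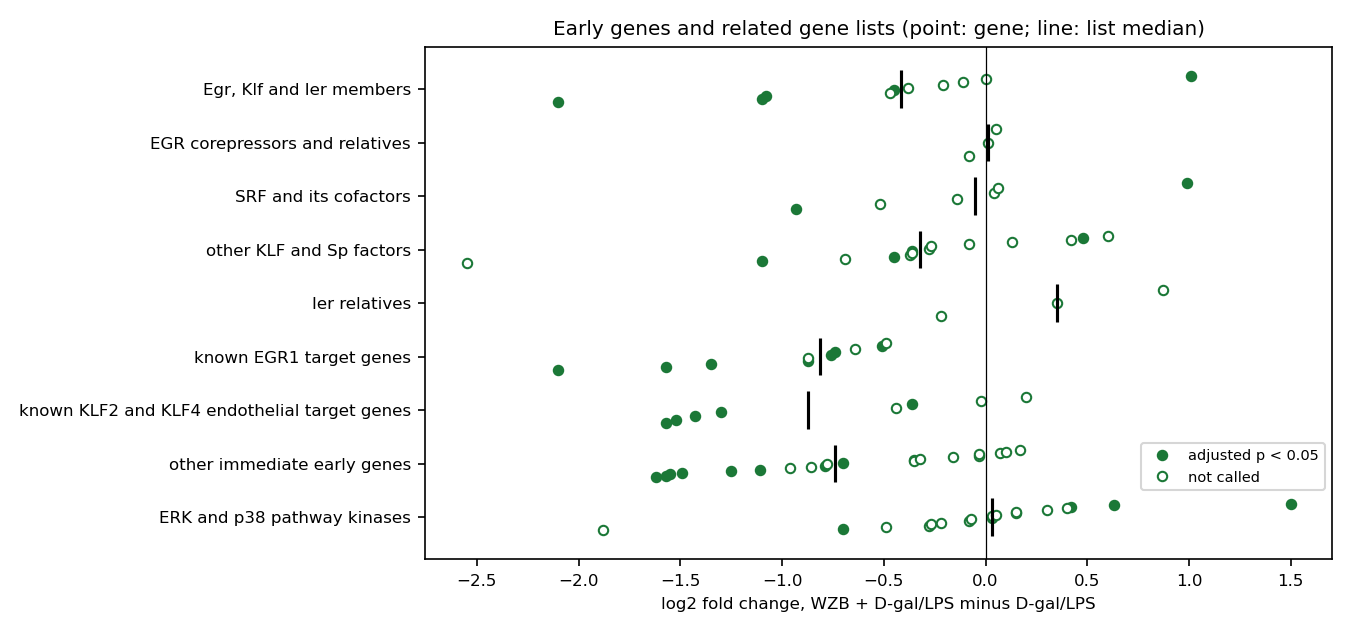
Log2 fold change of WZB + D-gal/LPS against D-gal/LPS (horizontal axis) for the 10 early genes and 8 lists of related genes (rows); points are genes, filled where the adjusted p was under 0.05, and lines are list medians. The medians are -0.42 for the early genes, -0.74 for other immediate early genes and -0.81 for EGR1 targets.

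The genes whose profile over the 9 libraries was most like that of a member were sought among 8867 genes of at least 5 CPM by the root mean square difference of centred log2 CPM. For Klf6 they were Themis2, a myeloid signalling gene (0.141), the cytokine gene Il1a (0.151) and the nucleotide hydrolase gene Samhd1 (0.152). For Egr1 they were the hyaluronan receptor gene Cd44 (0.286, also on the list of EGR1 targets), the myeloid receptor gene Cd300lf (0.316) and Cdkn1a, which encodes the cell cycle inhibitor p21 (0.321). For Ier3 they were the neutrophil collagenase gene Mmp8 (0.414, also on the list of neutrophil markers) and the chemokine genes Cxcl10 (0.522) and Ccl2 (0.542). By this measure Klf6 had closer neighbours than Ier3, but the measure also takes in the spread between libraries of a group. In control livers the SD of log2 CPM was 0.257 for Klf6 and 1.09 for Ier3. How much of the difference this spread makes was not tested. Among the members the closest pair was Ier2 and Ier5 (0.273), followed by Klf4 and Ier2 (0.294).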

How the data were processed

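A single table was deposited by the authors, with whole-number counts and FPKM per gene and library. Deposited FPKM (fragments scaled by gene length and depth) were proportional to them within 0.01 in all 12914 genes that could be compared. Per the submitters' processing notes the build was GRCm38.p4 (mm10), with R 4.1.2 and limma among the tools. Aligner, counter, annotation and strandedness: not given in the sources used here. Of 21 value columns, 3 had no match among the labels and were not used.

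Genes were kept by filterByExpr, which left 13583 genes with 99.93% of the reads, all 10 members among them. All 9 libraries entered 1 robust quasi-likelihood fit in edgeR 4.0.16 (R 4.3.3) of 3 groups, with TMM scaling, no block, 6 residual degrees of freedom and a threshold of 0.05 on the Benjamini-Hochberg adjusted p. Standard errors were derived from the log2 fold change and the F statistic. A member passed the filter through any group of sufficient level. Floors of 3 counts correspond to 0.166 to 0.199 CPM per library. Such floors and exact intervals cover counting error only. The fit was tested on simulated data with 200 changed genes and the same dispersion for every gene. Far more genes were called in these livers, so the simulation does not cover the dependence on scaling or uneven genes such as Egr1. Ratios used exact permutation tests (scipy 1.17.1).

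Genes named beside the members followed a rule: the 3 smallest adjusted p of each list with D-gal/LPS, and the 3 profiles nearest to Egr1, Klf6 and Ier3. A gene that this rule names is not reported here. Genes outside it (Elk3, Klf12, Klf3, Klf9, Nos3, Tek, Jun, Atf3, Gadd45b, Dusp6 and the cell type markers) were named after their values were seen. Members, lists, tests and alternatives were chosen with earlier results of these data known. Alternatives were DESeq2 1.42.0, limma 3.58.1 (voom and log2 FPKM), 3 other scalings, 2 other filters, a replicate block, fits of 2 groups and leaving out each library. The lists also held markers of lymphocytes, cholangiocytes and red blood cells.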

Additional observations from a re-analysis of the deposited data

How the results depend on the processing

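With D-gal/LPS against control, 9 members were called higher and 1 lower in each of the 21 fits, except that the filter of 5 CPM in 3 libraries removed Egr3 and Klf4 and left 7 higher, as in WZB + D-gal/LPS against control, where the fit of 2 groups also lacked 1 member (8 higher). With WZB against D-gal/LPS, the members called lower numbered 4, 3 with upper quartile factors, 5 with DESeq2, its size factors, total-count scaling and log2(FPKM + 0.1), 6 with voom, log2(FPKM + 1) and only the 2 groups compared, and 2 to 5 over fits without 1 library; Klf10 alone was called higher in each. The lowest of these, 2, came without D-gal/LPS replicate 1. Over all genes, 1873 rose and 2001 fell with WZB, against 850 and 3290 with total-count scaling, 899 and 3222 with log2(FPKM + 0.1), 913 and 3384 with log2(FPKM + 1), and 1232 to 1947 and 1410 to 2315 without 1 library. In WZB + D-gal/LPS against control, no member was called lower, but 1 (Klf10) was with total-count scaling, both FPKM scales and only the 2 groups compared, and 0 to 1 without 1 library. No member's called fold change turned its sign. The cause of these shifts was not tested.

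Replicate numbers did not pair the samples: deviations of same-numbered libraries correlated at -0.09 to 0.06 and of others at -0.05 to 0.11. The replicate block gave 9 members higher and 1 lower with D-gal/LPS, 1 higher and 4 lower with WZB, and 9 higher against control. Over all genes it called 1779 higher and 1879 lower with WZB. Depth limits Egr3 most, with 1 to 130 reads summed over a group. With D-gal/LPS against control its standard error of 0.83 was the highest among the members.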
